A study of Mus musculus with 32 samples.

Results

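The insulin-like growth factor (IGF) genes were followed across the embryonic kidneys of mice that carry a tumor mutation of ENL, a reader of acetylated histones encoded by Mllt1. The set was taken by name and holds 10 genes of the 55806 gene identifiers in the count tables: the ligand Igf1, the receptors Igf1r and Igf2r, the binding protein genes Igfbp2, Igfbp3, Igfbp4, Igfbp5, Igfbp6 and Igfbp7, and the RNA-binding protein gene Igf2bp1. All 10 were found in each of the 4 tables and were tested in every comparison.

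Polyadenylated RNA was sequenced in 32 libraries of 11 groups. Whole E18.5 kidneys were Six2-TGCtg/+;Enl+/+ (ENLWT, n = 2), Six2-TGCtg/+;EnlT1/+ (Six2-ENLT1, n = 2) or Six2-TGCtg/+;EnlT3/+ (Six2-ENLT3, n = 2), and Foxd1GC/+;Enl+/+ (n = 3) or Foxd1GC/+;EnlT1/+ (Foxd1-ENLT1, n = 3). Cells marked by the tdTomato Cre reporter (tdT+) were sorted from Six2-TGCtg/+ kidneys of E14.5 and of E18.5 (per stage 3 libraries of Enl+/+ and 3 of EnlT1/+) and from Foxd1GC/+ kidneys at E18.5 (4 and 4), so every sorted group also carried the reporter allele. T1 is an in-frame insertion and T3 a small deletion in the YEATS domain, each on 1 allele and switched on by Cre. Cre came from a Six2-TGC BAC transgene in nephron progenitors and their descendants, a transgene reported to bring aberrant Six3 expression, or from the Foxd1GC knock-in in stromal progenitors, which removes the function of that Foxd1 allele. Controls of each lineage carried the same Cre allele as their mutants. A tdT+ library holds the whole sorted lineage at its stage, and a whole kidney also holds cells without the mutation. The labels do not say whether libraries of a group came from separate embryos, so the p-values measure the spread between these libraries.

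IGF1 and IGF2 are secreted growth factors that signal through the tyrosine kinase receptor IGF1R, while IGF2R takes up IGF2 and clears it. Secreted IGF-binding proteins hold the ligands in blood and matrix, and proteases release them again. IGFBP7 is a related protein with low affinity for IGFs. IGF2BP1 belongs to another family: it binds messenger RNAs, among them that of Igf2, and is high in embryonic and tumor cells. Excess IGF2 is a well-known feature of Wilms tumor, the childhood kidney tumor in which ENL mutations occur.

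Total counts ran from 2557443 to 3508381 per library in sorted Foxd1 cells and from 67137194 to 157266455 in all others, so values in sorted Foxd1 cells carry more counting error. Mllt1 itself had a log2 fold change between -0.33 and -0.02 in the mutants. The counts do not tell its alleles apart, so they do not check the genotype. The summed level of 8 stroma markers was 5847 to 8732 CPM (counts per 1e+06 scaled counts) in sorted Foxd1 cells and 276.6 to 1759 CPM in sorted Six2 cells, and the summed level of 6 nephron progenitor markers was 108.4 to 168.8 against 188.3 to 1945 CPM. In sorted E18.5 Six2 cells the summed podocyte markers lay between 2761 and 3233 CPM in ENLWT and between 191.7 and 244.2 CPM in ENLT1. Sorted Foxd1 cells held 423.5 to 743.9 CPM of them in ENLWT and 441.8 to 584.2 CPM in ENLT1. Summed endothelium markers there were 225.3 to 409.4 and 291.7 to 369.3 CPM, against 15.07 to 53.49 CPM in sorted Six2 cells. Whether other cell types were sorted with the stroma was not tested. ENLWT replicate 2 of the whole Six2 kidneys held 49.88 CPM of skeletal muscle markers against 4.793 CPM in replicate 1, and Foxd1-ENLT1 replicate 1 of the whole kidneys held 99.08 CPM. Embryo sex differed between groups by Xist and Ddx3y: both Six2-ENLT1 kidneys were male, both Six2-ENLT3 kidneys female and the controls 1 of each. In sorted Six2 cells at E14.5 the sex markers (Xist and Y genes) summed to 242.1, 27.41 and 26.27 CPM in ENLWT. In ENLT1 they summed to 250.6, 240.9 and 36.03 CPM, so the genotypes were not balanced there. In whole Foxd1 kidneys the sums were 819.2 to 977 CPM in ENLWT and 439.8 to 541.3 CPM in Foxd1-ENLT1. Only 1 of the 5 sex markers had enough counts to be tested there, and it was called lower in Foxd1-ENLT1 (log2 -0.87). These sums therefore do not tell the sexes of the whole Foxd1 kidneys apart. The part of sex in the differences was not tested. Fewer cells of a type and less RNA per cell cannot be told apart in such bulk samples.

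Levels of different genes were compared as RPKM, CPM per kilobase of exon. Binding protein genes led in every group. In sorted ENLWT Six2 cells at E14.5, Igfbp2 stood at 113.2 ± 4.92 RPKM (SD, n = 3) and Igfbp4 at 103.1 RPKM (91.67 to 110.3), and the libraries of these 2 genes overlapped. Igfbp5 followed at 65.53 ± 1.39 RPKM, and Igf1 was the lowest of the 10 at 0.316 ± 0.126 RPKM. By E18.5 the order had changed to Igfbp5 at 245.5 ± 22.7 RPKM and Igfbp7 at 211.1 ± 9.71 RPKM, which did not overlap, with Igfbp4 next at 66.95 ± 3.96 RPKM. Sorted ENLWT Foxd1 cells were led by Igfbp7 at 275.4 ± 24.1 RPKM (n = 4). Igf1 was at 9.90 ± 4.98 RPKM there, in a range of 5.842 to 16.97 RPKM that overlapped Igf2r above it and Igf2bp1 below it.

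The summed RPKM of Igfbp2 to Igfbp7 served as a measure of binding protein transcripts. Igfbp2 made up 36.1% ± 1.12 (SD, n = 3) of it in ENLWT Six2 cells at E14.5 but 6.34% ± 0.136 at E18.5, when Igfbp5 and Igfbp7 together held the most. In ENLT1 Six2 cells at E18.5 the share of Igfbp7 was 19.3% ± 2.68 against 36.0% ± 2.103 in ENLWT, and the sum was 420.5 ± 28.9 against 586.9 ± 13.0 RPKM. In sorted Foxd1 cells the share of Igfbp2 was 28.2% ± 3.10 in ENLT1 and 8.08% ± 0.836 in ENLWT (n = 4 each), and no library of one genotype reached the other.

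**Figure D1:**
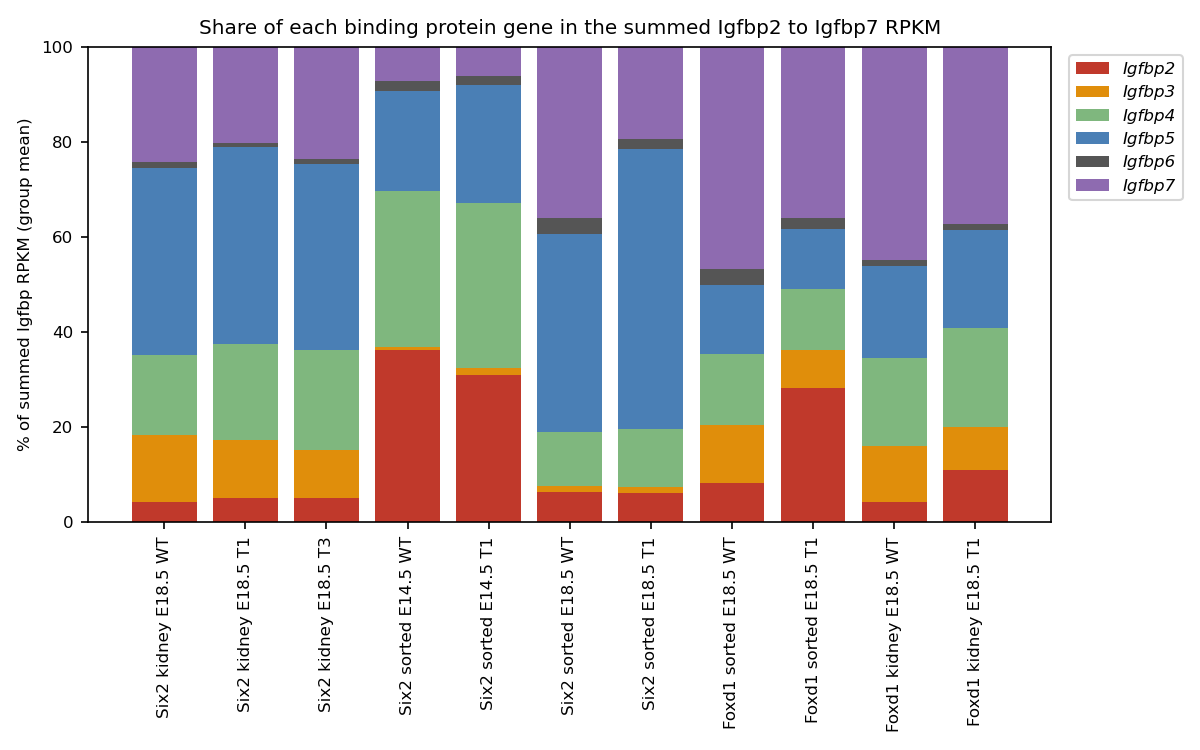
Share (%) of each of 6 binding protein genes in their summed RPKM, as the mean over the libraries of each of the 11 groups. The Igfbp2 part is 36.1% in ENLWT Six2 cells at E14.5, and in sorted Foxd1 cells it is 8.08% in ENLWT and 28.2% in ENLT1.

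How the genes move during normal development was read from sorted ENLWT Six2 cells, E18.5 against E14.5 (3 and 3 libraries). Calls here needed more than a 2-fold difference and an adjusted p below 0.01. By that rule 6 of the 10 rose and 1 fell, where 24.8% and 20.6% of all tested genes did, and 9 of the 10 did not overlap between stages, as did 76.2% of all genes. Both receptors rose: Igf1r by 2.95 on the log2 scale (SE 0.073, adjusted p = 2.89e-13), from 67.8 to 77.59 CPM up to 548.9 to 589.7 CPM, and Igf2r by 2.26 (SE 0.129, adjusted p = 7.41e-10). The steepest rise was that of Igfbp7, at 3.23 (SE 0.179, adjusted p = 5.12e-10), and Igfbp5 rose by 1.91, Igfbp6 by 1.49 and Igfbp3 by 1.44. Igfbp2 fell by 1.61 on the log2 scale (SE 0.059, adjusted p = 7.43e-12), from 202.5, 205.2 and 219.4 CPM to 66.38, 67.62 and 72.07 CPM. Igf2bp1 had a log2 difference of -0.79 and Igfbp4 of -0.62, both under the fold limit (adjusted p = 1.47e-06 and 1.09e-06), and Igf1 one of -0.03 (SE 0.343, adjusted p = 0.944). E14.5 and E18.5 kidneys were dissociated with different enzymes, so stage and dissociation cannot be told apart. Podocyte and proximal tubule markers moved with these genes, with 5 of 5 higher at E18.5 on either list, as were 5 of 6 endothelium markers (the other was lower), while 5 of 6 nephron progenitor markers were lower at E18.5, like Igfbp2. The part of these cell types in the changes was not tested.

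**Figure D2:**
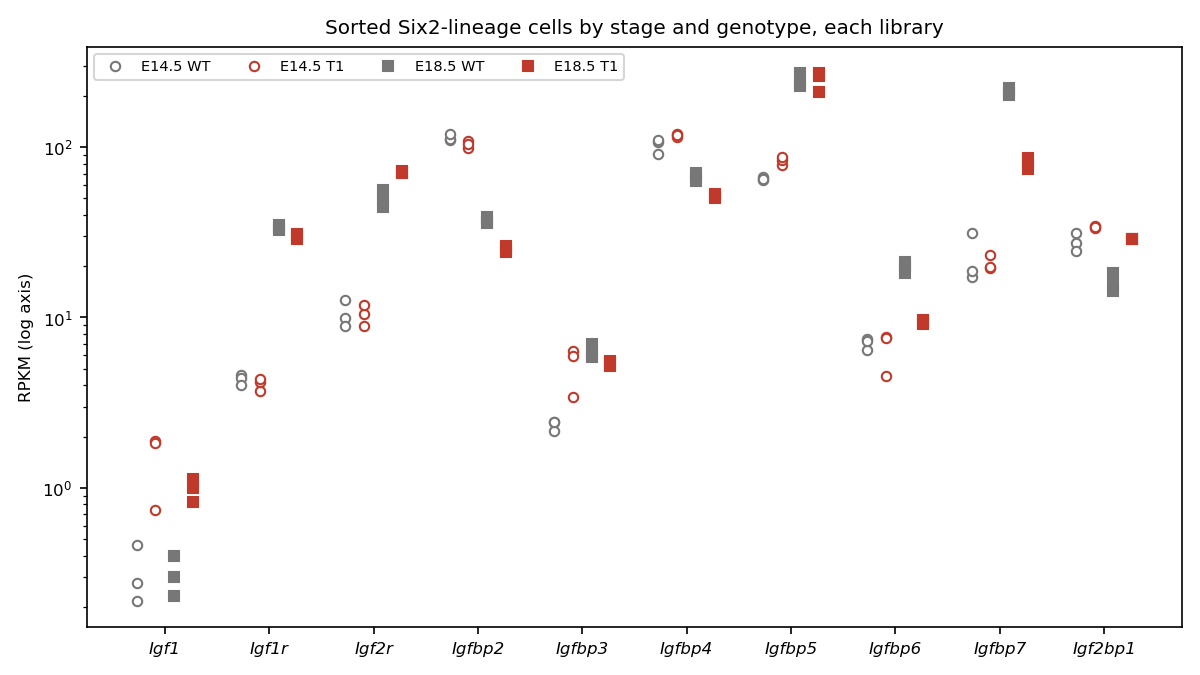
RPKM (log axis) of the 10 genes in each of the 12 sorted Six2 libraries, by stage and genotype. Igf1r, Igf2r, Igfbp5 and Igfbp7 lie higher at E18.5, and Igfbp2 lies lower. The ENLT1 libraries separate from ENLWT at E18.5 for 9 of the 10 genes, all but Igfbp5.

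To ask how the mutants differ from their controls, calls in each genotype comparison needed more than a 1.5-fold difference and an adjusted p below 0.05. In sorted Six2 cells at E14.5, 2 of the 10 rose (Igf1 and Igfbp3) and none fell, where 4.11% of all tested genes rose and 2.28% fell, and DESeq2 called the same numbers. At E18.5, 2 rose (Igf1 and Igf2bp1) and 2 fell (Igfbp6 and Igfbp7), where 6.14% and 5.54% did. In whole Six2-ENLT3 kidneys 1 rose (Igf1) and 1 fell (Igfbp3), where 4.34% and 5.28% did. In whole Six2-ENLT1 kidneys none was called, where 2.88% of all genes rose and 4.88% fell, although 4 of the 10 had an unadjusted p under 0.05, as did 26.2% of all genes, and edgeR's exact test and DESeq2 each called 1 (Igfbp6). In sorted Foxd1 cells and in whole Foxd1 kidneys 1 gene rose, Igfbp2 each time, where 3.63% and 2.65% of all genes did, and none fell by edgeR or DESeq2, where 2.18% and 7.53% did, although 4 of the 10 had an unadjusted p under 0.05 in either material, as did 23.3% and 43% of all genes. The 6 comparisons are not independent, as both whole Six2 comparisons share their controls. The genotypes did not overlap for 5 of the 10 genes in sorted Six2 cells at E14.5 and for 9 at E18.5, against 31.8% and 34.9% of all genes. They did not overlap for 6 and 8 in whole Six2-ENLT1 and Six2-ENLT3 kidneys, against 55% and 56.1%, for 4 in sorted Foxd1 cells, against 15.6%, and for 5 in whole Foxd1 kidneys, against 46.5%.

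**Figure D3:**
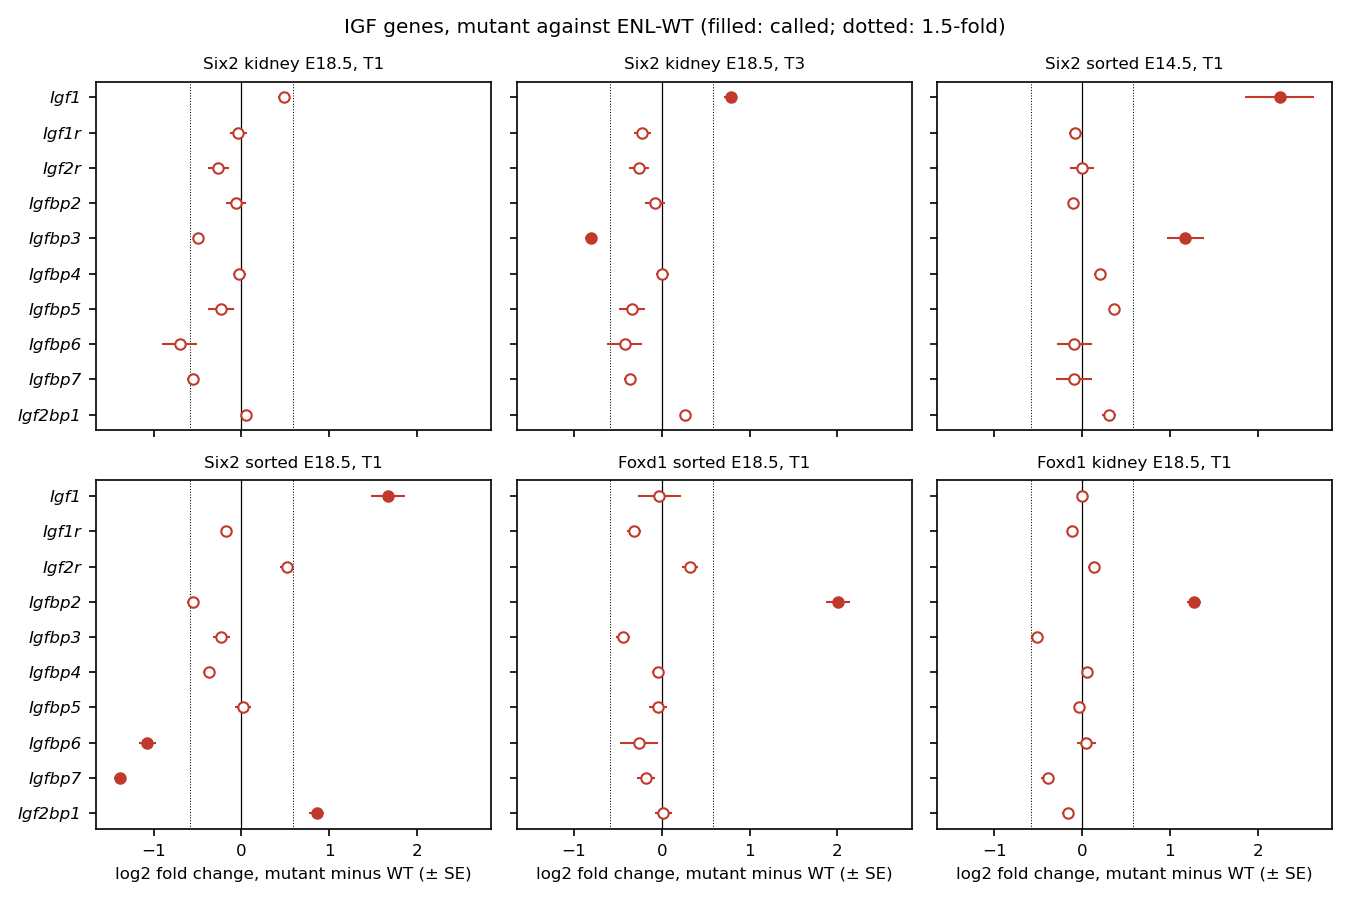
Log2 fold change of each of the 10 genes, mutant minus ENLWT, with bars of 1 SE, in the 6 genotype comparisons. Filled points were called, dotted lines mark a 1.5-fold difference, and Igf1 lies at 2.25 and 1.67 in sorted Six2 cells but at -0.03 in sorted Foxd1 cells, where Igfbp2 lies at 2.01.

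Igf1, the ligand of the set, rose in every Six2 comparison of sorted cells and in Six2-ENLT3 kidneys. At E14.5 the ENLWT libraries held 2.713, 2.14 and 4.54 CPM of Igf1 and the ENLT1 libraries 18.64, 7.331 and 18.14 CPM. At E18.5 ENLWT held 2.286, 3.959 and 2.953 CPM and ENLT1 11.17, 8.12 and 9.921 CPM. The genotypes were separate at both stages, with 1 ENLT1 library of E14.5 well below the other two. The log2 fold change was 2.25 (SE 0.392, adjusted p = 0.0074) at E14.5 and 1.67 (SE 0.192, adjusted p = 3.14e-05) at E18.5. The difference between the stages was -0.57 (SE 0.474, adjusted p = 0.555). Even in ENLT1 the level was 0.7402 to 1.882 RPKM, below the 5.842 to 16.97 RPKM of sorted ENLWT Foxd1 cells, a comparison of level across tables that were normalized separately.

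Stroma markers moved with Igf1 in these sorted cells. Their sum was 365.7 to 517.9 CPM in ENLWT and 813.2 to 1759 CPM in ENLT1 at E14.5, and 276.6 to 517.7 against 775.6 to 904 CPM at E18.5. At E14.5, 7 of the 8 markers rose and 1 fell, and at E18.5 6 rose and 1 fell. The marker that fell was Foxd1, at 134.6 to 159.5 CPM in ENLWT and 59.5 to 94.23 CPM in ENLT1 at E14.5, and none of the 8 was at 0 in any library. The ENLT1 library of E14.5 with the lowest Igf1, replicate 2, also had the lowest stroma sum of its group. Over the 12 sorted Six2 libraries the genes most alike Igf1 in log2 CPM were Dcn (Pearson r = 0.962), Matn2 (r = 0.954) and Lum (r = 0.953), of which Dcn and Lum encode matrix proteoglycans and are on the stroma list. These 12 points fall into 4 groups that share stage and genotype, so the r values are descriptions. Whether stromal cells or transcripts account for the Igf1 difference was not tested.

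**Figure D4:**
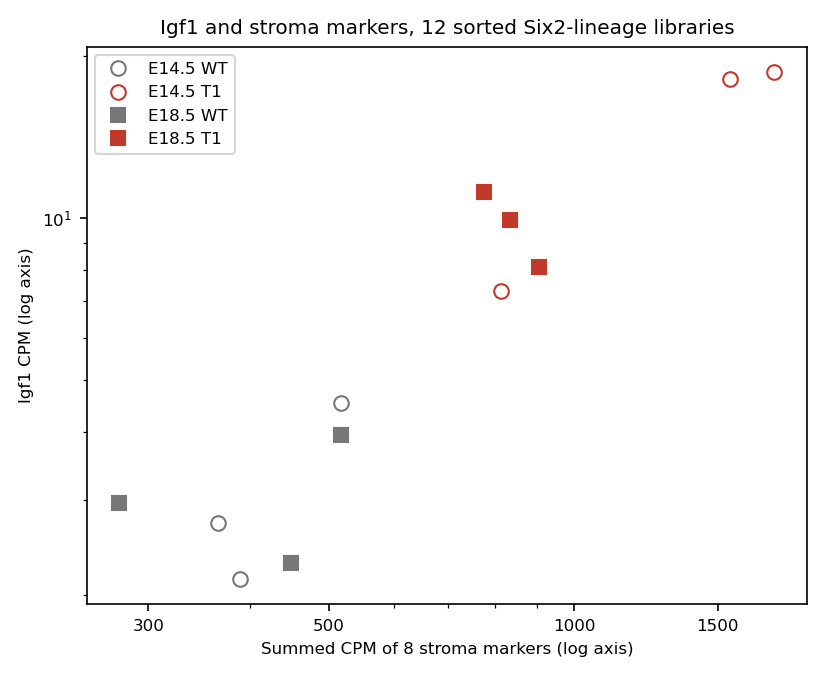
Igf1 CPM against the summed CPM of 8 stroma markers (both log axes) in the 12 sorted Six2 libraries, by stage and genotype. The 6 ENLT1 libraries lie above the 6 ENLWT libraries on both axes, with sums from 775.6 to 1759 CPM against 276.6 to 517.9 CPM.

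In whole Six2 kidneys Igf1 stood at 92.07 and 83.11 CPM in ENLWT, 119.3 and 126.4 CPM in Six2-ENLT1 and 145.8 and 156.1 CPM in Six2-ENLT3. Libraries of the 3 genotypes did not overlap. Six2-ENLT3 rose by 0.79 on the log2 scale (SE 0.071, adjusted p = 0.000359), and Six2-ENLT1 had a log2 fold change of 0.49 (SE 0.071, adjusted p = 0.00344), under the fold limit. The T3 and T1 kidneys differed by 0.30 (SE 0.070, adjusted p = 0.51). This fit also takes in the ENLWT pair, whose libraries differed more (chi-square per gene 159.2) than those of Six2-ENLT1 (13.24) or Six2-ENLT3 (28). The Six2-ENLT1 kidneys were male and the Six2-ENLT3 kidneys female, so sex and mutation cannot be told apart here. Among all genes 1 was called between these mutants, or 0.00418% of those tested, and none of the 10 by edgeR or DESeq2, although 4 of the 10 had an unadjusted p under 0.05, against 7.19% of all genes, and 6 did not overlap, against 44.3%. The summed stroma markers were 4868 to 5944 CPM in ENLWT and 5194 to 5941 CPM in the mutants, with 1 of 8 called higher in Six2-ENLT1, 2 of 8 in Six2-ENLT3 and none lower, and 5 of 6 macrophage markers rose in both mutants, from 114.8 to 115.9 CPM up to 159.4 to 178.5 CPM in sum. The part of stroma and macrophages was not tested.

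Neither receptor was called in a genotype comparison. Igf1r, the signalling receptor, was at 548.9 to 589.7 CPM in ENLWT and 484.9 to 518.1 CPM in ENLT1 Six2 cells at E18.5, which do not overlap, with a log2 fold change of -0.17 (SE 0.062, adjusted p = 0.0676). In sorted Foxd1 cells it was at 205.8 to 223.7 CPM in ENLWT and 159.9 to 197.1 CPM in ENLT1, with a log2 fold change of -0.32 (SE 0.078, adjusted p = 0.0117), under the fold limit. Igf2r, which clears IGF2, was at 523.9, 462.5 and 417.2 CPM in ENLWT and 657.9, 668.5 and 676.5 CPM in ENLT1 Six2 cells at E18.5, a log2 fold change of 0.52 (SE 0.079, adjusted p = 0.000347) that stayed under the fold limit. It passed that limit without ENLWT replicate 1 (0.61) and with scaling by library size only (0.61, adjusted p = 0.000103). At E14.5 the value for Igf2r was -1e-04 (SE 0.139), and in sorted Foxd1 cells 0.32 (SE 0.094, adjusted p = 0.0343). In whole kidneys no receptor had an adjusted p under 0.05 (log2 values from -0.26 to 0.13).

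Igfbp7 and Igfbp6 fell in sorted Six2 cells at E18.5. Igfbp7 was at 250.8, 268.5 and 246.2 CPM in ENLWT and 104.9, 90.03 and 97.97 CPM in ENLT1, so each mutant library held less than any control. The log2 fold change was -1.38 (SE 0.070, adjusted p = 1.95e-08). At E14.5 the same gene was at 20.94, 22.57 and 37.85 CPM against 23.56, 23.96 and 27.99 CPM, with overlapping genotypes and a log2 value of -0.09 (SE 0.206). The difference between stages was -1.28 (SE 0.234, adjusted p = 0.00408). Igfbp6 was at 23.6, 22.39 and 20.29 CPM in ENLWT and 10.56, 10.7 and 10.16 CPM in ENLT1 at E18.5, a log2 fold change of -1.07 (SE 0.097, adjusted p = 3.52e-06), against -0.09 (SE 0.196) at E14.5. In both cases the ENLT1 cells at E18.5 lay between the ENLWT levels of E14.5 and of E18.5. All 5 podocyte and all 5 proximal tubule markers fell in the same E18.5 comparison. Endothelium markers summed to 45 to 53.49 CPM in ENLWT and 26.26 to 40.47 CPM in ENLT1, with 1 of 6 called lower. The part of these cell types in the falls was not tested. In whole kidneys Igfbp7 was lower in both Six2 mutants, with 135.7 to 166.4 CPM against 201.6 and 207.3 CPM in ENLWT, but its log2 values of -0.55 (adjusted p = 0.00155) and -0.36 (adjusted p = 0.00885) were under the fold limit. Igfbp6 in whole Six2-ENLT1 kidneys had a log2 value of -0.70 (SE 0.200, adjusted p = 0.057). Without ENLWT replicate 1, the library with less Igfbp6 (7.212 CPM against 11.57 CPM in replicate 2), it was called at -0.999 in Six2-ENLT1 (adjusted p = 0.000881) and -0.72 in Six2-ENLT3 (adjusted p = 0.00369). ENLWT replicate 2, which remains then, is the library with muscle markers. Of the exon length of Igfbp7, 7.03% lies in exons of Polr2b on the other strand, and the counts ignore strand.

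Igfbp3, the main carrier of IGFs in blood, differed in direction between sorted E14.5 cells and whole E18.5 kidneys. In sorted Six2 cells at E14.5 it was at 7.571, 6.785 and 7.62 CPM in ENLWT and 19.88, 10.67 and 18.52 CPM in ENLT1, and rose by 1.18 on the log2 scale (SE 0.213, adjusted p = 0.00883). ENLT1 replicate 2 was again the lowest of its group, as it was for the stroma sum (813.2 CPM), and 7 of 8 stroma markers rose in this comparison. Igfbp3 was at 71.57 RPKM in sorted ENLWT Foxd1 cells and 2.34 RPKM in these ENLWT Six2 cells, in tables normalized separately. The part of stroma in the Igfbp3 rise was not tested. At E18.5 the log2 value was -0.23 (SE 0.096, adjusted p = 0.125), and the difference between stages was -1.39 (SE 0.247, adjusted p = 0.00322). In whole Six2 kidneys Igfbp3 was at 304.7 and 309.7 CPM in ENLWT, 212.4 and 225.3 CPM in Six2-ENLT1 and 181.9 and 169.2 CPM in Six2-ENLT3. It fell by 0.81 on the log2 scale in Six2-ENLT3 (SE 0.066, adjusted p = 0.000235), and the Six2-ENLT1 value of -0.49 (adjusted p = 0.00246) was under the fold limit. In both Six2 mutants all 5 podocyte, all 5 proximal tubule and 5 of 6 nephron progenitor markers fell in whole kidneys. Their sums were 795.9 to 919 CPM in ENLWT and 228.2 to 243.3 CPM in the mutants for podocytes, 1201 to 1628 and 222.2 to 299 CPM for proximal tubule, and 142.9 to 166.9 and 72.12 to 88.38 CPM for progenitors. Their part in the lower Igfbp3 and Igfbp7 was not tested. Both Foxd1 comparisons gave Igfbp3 values under the fold limit, at -0.44 in sorted cells (SE 0.078, adjusted p = 0.000889) and -0.51 in whole kidneys (SE 0.067, adjusted p = 7.47e-05), with no overlap between genotypes in either.

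Igfbp4 and Igfbp5 were abundant and were called in no genotype comparison. Igfbp5 ranged from 1226 to 1916 CPM in whole Six2 kidneys, with log2 values of -0.23 (SE 0.148) and -0.34 (SE 0.148), and had a log2 value of 0.36 (SE 0.045, adjusted p = 0.00156) in sorted Six2 cells at E14.5 and 0.02 (SE 0.093) at E18.5. Igfbp4 had log2 values of 0.21 (adjusted p = 0.0919) and -0.37 (SE 0.065, adjusted p = 0.00104) at these stages, a difference between stages of -0.57 (SE 0.096, adjusted p = 0.00224).

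Igf2bp1, the RNA-binding protein gene, was higher in ENLT1 Six2 cells at E18.5. ENLWT libraries held 175.7, 150.5 and 138.4 CPM and ENLT1 libraries 280.1, 279.1 and 278.9 CPM, so that the mutant libraries lay close together and above every control. The log2 fold change was 0.86 (SE 0.081, adjusted p = 5.43e-06). At E14.5 ENLWT held 302.9, 263.4 and 236.9 CPM and ENLT1 333.2, 324.4 and 327.5 CPM, a log2 value of 0.31 (SE 0.080, adjusted p = 0.0385) that was under the fold limit. The ENLT1 cells at E18.5 thus lay within the E14.5 range of ENLWT. The difference between stages was 0.56 (SE 0.125, adjusted p = 0.0138), but it did not pass the threshold without ENLWT replicate 2 or 3 of E18.5 or without any of the 3 ENLT1 libraries of E18.5 (0.42 to 0.51, adjusted p = 0.0575 to 0.0783). In whole Six2 kidneys the log2 value was 0.05 (SE 0.056) in Six2-ENLT1 and 0.27 (SE 0.056, adjusted p = 0.0149) in Six2-ENLT3. Over the 12 sorted Six2 libraries Igf2bp1 was most alike Atxn7l3b (Pearson r = 0.972), Zfp536 (r = 0.971) and Hoxd12 (r = 0.964), again over 4 groups of libraries. Nephron progenitor markers went the other way, with 5 of 6 lower in ENLT1 at either stage. Summed macrophage markers in these E18.5 cells were 35.19 to 38.05 CPM in ENLWT and 82.9 to 94.71 CPM in ENLT1, and summed red cell markers 103.8 to 210.2 and 1550 to 2273 CPM. Their part in the E18.5 differences was not tested.

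Across the set, the genotype effect differed between E14.5 and E18.5 for 6 of the 10 genes at an adjusted p under 0.05 with no fold limit, 1 toward higher (Igf2bp1) and 5 toward lower values at E18.5 (Igfbp2, Igfbp3, Igfbp4, Igfbp6 and Igfbp7), where 3.94% and 4.22% of all genes did. For Igfbp2 the difference was -0.43 (SE 0.081, adjusted p = 0.00495), between a log2 value of -0.11 at E14.5 and of -0.55 (adjusted p = 5.82e-05) at E18.5, and for Igfbp6 it was -0.97 (SE 0.229, adjusted p = 0.0182). Igf2r (0.53, adjusted p = 0.084) and Igfbp5 (-0.33, adjusted p = 0.125) missed the threshold, but DESeq2 called both, and Igf2r was called without ENLWT replicate 3 of E14.5 (0.64) and Igfbp5 without ENLT1 replicate 3 of E18.5 (-0.46). The median over the 10 was -0.50, beside 0.02 over all tested genes. Cell type markers differed between stages in the same contrast. Lower were 4 of 5 podocyte, 2 of 5 proximal tubule, 2 of 6 nephron progenitor, 2 of 8 stroma and 2 of 6 endothelium markers. Higher were 1 of 6 macrophage and 1 of 6 ureteric tree markers. The part of cell make-up in the stage differences was not tested.

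In the stroma, the change was in Igfbp2, which binds IGF2 with high affinity and is a typical fetal binding protein. Sorted ENLWT Foxd1 cells held 86.94, 97.32, 90.3 and 75.94 CPM, and ENLT1 cells 256.1, 370.9, 326.8 and 458.1 CPM. Every mutant library was above every control, with more spread among the mutants. The log2 fold change was 2.01 (SE 0.135, adjusted p = 1.61e-08), and it was 1.86 to 2.13 with any 1 library left out. In whole Foxd1 kidneys the ENLWT libraries held 71.87, 88.1 and 71.19 CPM and the Foxd1-ENLT1 libraries 196.3, 173.3 and 188.1 CPM, a rise of 1.27 on the log2 scale (SE 0.079, adjusted p = 1.35e-07). The library with muscle markers, Foxd1-ENLT1 replicate 1, was 1 of these, and the value stayed between 1.21 and 1.38 with any 1 library left out. Among the 8 stroma markers 1 rose and 1 fell in sorted Foxd1 cells, with sums of 5847 to 8732 CPM in ENLWT and 6710 to 7727 CPM in ENLT1. Nephron progenitor markers, of which 4 of 6 rose in whole Foxd1-ENLT1 kidneys, were at 108.4 to 160 CPM in sorted ENLWT and 135.1 to 168.8 CPM in sorted ENLT1 cells, with 1 of 6 called higher. Proximal tubule markers fell in whole Foxd1-ENLT1 kidneys (4 of 5, from 1709 to 1906 CPM down to 771.8 to 1003 CPM in sum), and 2 of the 4 tested fell in sorted cells. Macrophage markers were at 70.16 to 168.6 and 170.1 to 236.5 CPM in sum in sorted cells, with 5 of 6 called higher. The part of these cell types was not tested.

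The neighbour of Igfbp2 did not move with it. Igfbp2 lies on chromosome 1 of GRCm38 from 72824503 to 72852474 on the plus strand and Igfbp5 from 72857932 to 72874884 on the minus strand, so that their 3′ ends face each other over 5457 bases with no annotated gene between. In sorted Foxd1 cells Igfbp5 was at 401.9, 517.6, 499.1 and 633.9 CPM in ENLWT and 529.2, 469.3, 493.5 and 496.8 CPM in ENLT1, with overlapping genotypes and a log2 value of -0.04 (SE 0.099). In whole Foxd1 kidneys its value was -0.03 (SE 0.052). The stretches just upstream of both starts are shown because 1 gene of this pair changed and the other was not called. They are RefSeq windows of GRCm38.p6, up to 20 bases before the RefSeq start, which is not the GENCODE start of the coordinates above, at chr1:72824230-72824459 (plus strand) for Igfbp2 and chr1:72874886-72875115 (minus strand) for Igfbp5. Capitals mark the 6 letters of GC boxes, spelled GGGCGG, and of the E box of the palindromic form CACGTG.
Igfbp2: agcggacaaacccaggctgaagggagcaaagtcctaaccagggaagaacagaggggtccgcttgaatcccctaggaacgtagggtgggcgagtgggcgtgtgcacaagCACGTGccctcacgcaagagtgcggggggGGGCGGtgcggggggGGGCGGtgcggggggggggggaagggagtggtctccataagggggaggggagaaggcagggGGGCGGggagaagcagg
Igfbp5: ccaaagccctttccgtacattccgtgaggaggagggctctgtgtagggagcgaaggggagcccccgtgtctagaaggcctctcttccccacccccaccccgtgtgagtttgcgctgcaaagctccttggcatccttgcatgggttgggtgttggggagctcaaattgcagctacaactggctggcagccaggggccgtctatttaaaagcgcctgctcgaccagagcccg
Both strands were searched, also for the core TATA box, spelled TATAAA. The last of the 4 motifs searched was the pentamer CCAAT. The Igfbp2 window holds 3 GC boxes and 1 E box and is 68.3% G and C, and the Igfbp5 window holds none of the 4 motifs and is 60.4% G and C. Of 32851 mouse windows of this length, 29.8% hold a GC box and 5.35% this E box. Of the 9 members with a window, 4 hold a GC box (Igf1r, Igf2r, Igfbp2 and Igfbp7) and 2 the E box (Igf2r and Igfbp2). A member counts here if any of its windows holds the motif, so these counts and the shares of single windows are not like measures. RefSeq lists a second start for Igfbp2, whose window holds none of the 4 motifs. These are letters only, and no binding was measured here.

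The other members were not called in the Foxd1 lineage. Igf1 was at 57.86 to 168.1 CPM in sorted ENLWT and 76.66 to 139.9 CPM in sorted ENLT1 cells, a log2 value of -0.03 (SE 0.245), and at 58.63 to 65.91 CPM over the 6 whole Foxd1 kidneys, with a value of 0.00 (SE 0.059). The wide spread in sorted cells means that an Igf1 change of modest size was not detectable there. Igf2bp1 was at 48.61 to 59.33 CPM over all 8 sorted libraries (0.02, SE 0.094). Igfbp7 had a log2 value of -0.18 (SE 0.102, adjusted p = 0.314) in sorted cells and of -0.39 (SE 0.078, adjusted p = 0.00186) in whole kidneys, under the fold limit. Endothelium markers in these whole kidneys summed to 994.6 to 1099 CPM in ENLWT and 829.6 to 921.1 CPM in Foxd1-ENLT1, with 1 of 6 called lower. The part of endothelium in the Igfbp7 and Igfbp3 values was not tested. Igfbp6 overlapped between genotypes in both. The median over the 10 genes was -0.04 in sorted Foxd1 cells and -0.02 in whole Foxd1 kidneys.

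Whether T1 acted differently in the 2 lineages was tested on the 14 sorted E18.5 libraries as the Foxd1 effect minus the Six2 effect. It differed at an adjusted p under 0.05 for 6 of the 10 genes, 4 with a higher value in Foxd1 cells and 2 with a lower one, where 8.25% and 7.63% of all tested genes did. The difference was 2.54 for Igfbp2 (SE 0.180, adjusted p = 2.72e-09), whose Six2 value was negative, 1.18 for Igfbp7 (SE 0.146, adjusted p = 5.28e-06), -1.72 for Igf1 (SE 0.370, adjusted p = 0.00234) and -0.86 for Igf2bp1 (SE 0.126, adjusted p = 4.84e-05). Igfbp6 at 0.79 (adjusted p = 0.0434) and Igfbp4 at 0.31 (adjusted p = 0.0288) were close to the threshold. Igfbp6 lost it when any 1 of 10 of the 14 libraries was left out (0.62 to 0.80, adjusted p up to 0.145) and with scaling by library size only (adjusted p = 0.0664), and Igfbp4 lost it for 10 libraries (0.25 to 0.31, adjusted p up to 0.0802) and with that scaling (adjusted p = 0.103). Igf1r (-0.16, adjusted p = 0.326) was called without Foxd1-ENLT1 replicate 1 (-0.27). The lineages were sequenced at different read lengths and depths, and a difference between runs that acts unequally on the genotypes cannot be told apart from lineage. Cell type markers also differed in this contrast. Higher were 5 of 5 podocyte, 4 of 6 nephron progenitor and 3 of 5 proximal tubule markers. Lower were 5 of 8 stroma markers (1 was higher), 4 of 6 macrophage and 5 of 5 red cell markers. The part of cell make-up in the lineage differences was not tested.

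**Figure D5:**
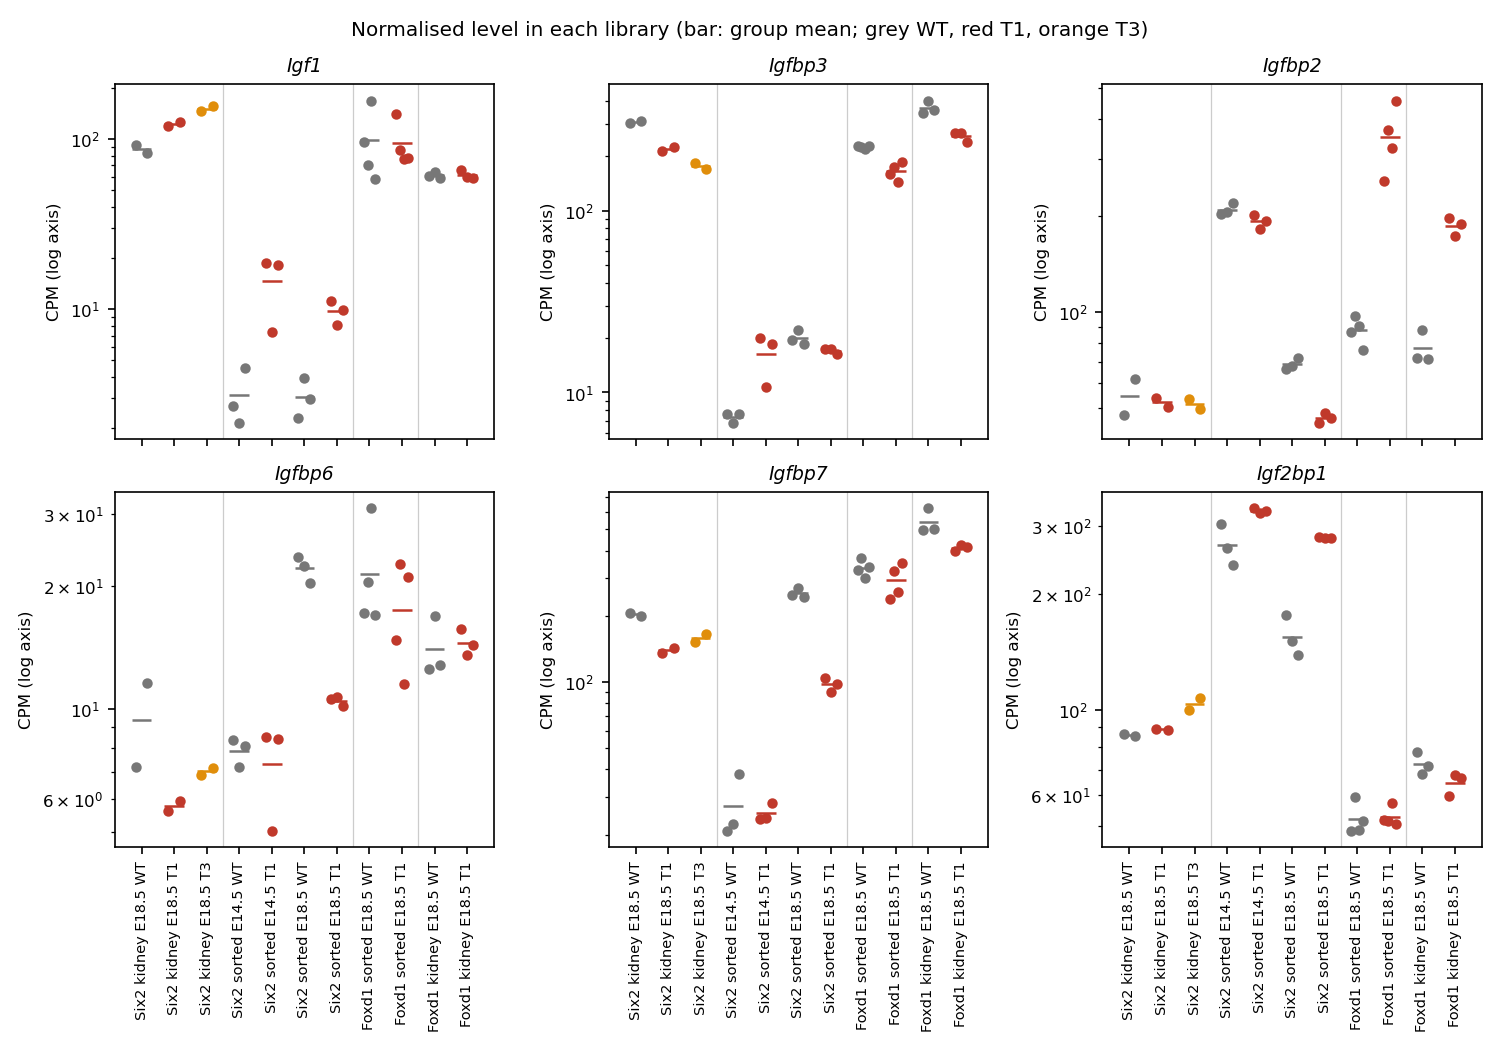
CPM (log axis) of 6 of the 10 genes in each of the 32 libraries, by group, with the group mean as a bar. In sorted Foxd1 cells the ENLT1 libraries of Igfbp2 lie between 256.1 and 458.1 CPM, above all ENLWT libraries, while Igf1 separates by genotype in the Six2 groups only.

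The other 22 genes of the IGF system, a list of ligands, receptors, binding proteins, proteases, adaptors and RNA-binding partners, changed as follows. During normal development of sorted Six2 cells 9 of the 21 tested rose and 2 fell, beside 24.8% and 20.6% of all genes. Pappa, a protease gene for binding proteins, rose by 4.28 on the log2 scale (SE 0.146), from 3.624 to 4.693 CPM up to 79.7 to 85.57 CPM, and Lin28b, which encodes an RNA-binding protein of fetal tissues, fell by 5.06 on that scale (SE 0.585, adjusted p = 1.98e-06). In whole Six2-ENLT1 and Six2-ENLT3 kidneys 20 were tested, of which 1 rose and 3 fell in either mutant, beside 2.88% and 4.88% of all genes in Six2-ENLT1 and 4.34% and 5.28% in Six2-ENLT3. The gene that rose was Igf2, at 70.72 and 93.42 CPM in ENLWT, 118 and 132.5 CPM in Six2-ENLT1 and 134.1 and 129.5 CPM in Six2-ENLT3, with log2 fold changes of 0.61 (SE 0.123, adjusted p = 0.0152) and 0.68 (SE 0.123, adjusted p = 0.00809). Those that fell were Igfals, whose product stabilises circulating IGF complexes (-1.84 and -1.97), Insrr, a receptor of the insulin receptor family (-0.98 and -0.66), and Htra1, a protease that cuts binding proteins (-0.80 and -0.63). All 5 podocyte and all 5 proximal tubule markers fell in both mutants too, and their part in these falls was not tested. In sorted Six2 cells at E14.5 1 of 21 rose, Pappa (1.11, SE 0.168, adjusted p = 0.00402), and 5 fell, among them Insrr (-3.04), Igfals (-1.22), Lin28b (-0.97), and Grb10, which encodes an adaptor that damps receptor signalling (-0.71), beside 4.11% and 2.28% of all genes.

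At E18.5, 2 of 21 rose and 5 fell in sorted Six2 cells, beside 6.14% and 5.54% of all genes. Igf2 was at 116.5, 111.3 and 128.7 CPM in ENLWT and 210.3, 251 and 241.1 CPM in ENLT1, and rose by 0.98 on the log2 scale (SE 0.080, adjusted p = 1.35e-06), against 0.37 (adjusted p = 0.00931) at E14.5, a difference of 0.63 (SE 0.116, adjusted p = 0.00431). Of its exon length 64.5% lies in exons of Igf2os and Gm49394, so that its counts are uncertain. The largest falls were those of Insrr (-3.16), Htra1 (-2.67), Igfbp1 (-1.54) and Igfals (-1.28), and none of these 4 overlapped between genotypes. Igfals was low, at 0.866 to 1.948 CPM in ENLWT and 0.3634 to 0.8123 CPM in ENLT1. All 5 podocyte and all 5 proximal tubule markers fell in this comparison, and their part in these falls was not tested. In the Foxd1 lineage 1 of 14 tested genes rose in sorted cells, beside 3.63% of all genes: Htra1 (0.84, SE 0.211, adjusted p = 0.0134), which had fallen in the Six2 lineage. Its level there was low, at 5.425 to 14.92 CPM in ENLWT and 17.28 to 22.93 CPM in ENLT1. In whole Foxd1 kidneys Htra1 went the other way and was not called, at 15.24 to 17.12 CPM in ENLWT and 12.62 to 13.5 CPM in Foxd1-ENLT1. The difference between lineages was 3.50 for Htra1 (SE 0.319, adjusted p = 9.14e-08). All 5 podocyte markers were also higher in that contrast, and the part of cell make-up was not tested. Igf2 had a log2 value of 0.56 in sorted Foxd1 cells (SE 0.099, adjusted p = 0.000806), under the fold limit, and a difference between lineages of -0.44 (SE 0.147, adjusted p = 0.0456). In whole Foxd1 kidneys 1 of 19 rose, the protease gene Pappa2 (1.06, SE 0.094, adjusted p = 2.4e-06), and 2 fell, Igfals (-0.88) and Insrr (-0.67), beside 2.65% and 7.53% of all genes.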

How the data were processed

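The authors sequenced polyadenylated RNA (a stranded mRNA kit for whole kidneys, a SMART-Seq kit for sorted cells). Per the labels and the study's methods, reads were demultiplexed with bcl2fastq, aligned with HISAT2 to mm10 and counted per gene with HTSeq without strand. The annotation release is not given in the sources used here. Counts of sorted Foxd1 cells covered 55471 gene identifiers and the others 54752 each, so the gene lists differed. Exon lengths for RPKM were the same for all. The values analysed are the raw counts per gene that the authors deposited, in 4 tables of the whole series.

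Genes were tested with the quasi-likelihood F test of edgeR 4.0.16 (R 4.3.3) on the deposited counts after filterByExpr (minimum count 10, minimum total 15) and TMM scaling, with Benjamini-Hochberg adjustment over all tested genes. The study itself used edgeR's exact test, which was run as an alternative with DESeq2 1.42.0. SE is the standard error of the log2 fold change. CPM and RPKM are TMM-scaled within a table, with all its groups scaled together, while each test used its own scaling. RPKM used exon lengths from GENCODE annotation of GRCm38, the assembly that mm10 names. Of 55806 identifiers 55450 had a symbol.

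The 10 genes, the other IGF genes and the marker lists were chosen with earlier results of these data known. Named were all 10, Mllt1, at most 5 called genes of the other 22 per comparison by size of change, and the 3 genes most alike Igf1 and Igf2bp1. Stc1, Pappa2 and Grb10 were also called at E14.5 or E18.5 beyond that number. The scripts recovered known fold changes in data simulated from these counts. Those data followed the model that was then fitted, and recovery was judged by adjusted p without a fold limit. This checks the scripts and not the model or the calls. Groups came from the labels. Other scalings, filters, tests, a replicate block and leaving out each library were tried. Figures were drawn with matplotlib 3.10.9. Promoter windows came from RefSeq for 9 of the 10 genes. All 33 pairs of libraries within a group differed by more than counting error (chi-square per gene of at least 1.361).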

Additional observations from a re-analysis of the deposited data

Results flagged for a closer look

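In the 4 sorted Foxd1-ENLT1 libraries, 1 library stood apart from the other 3 for each of 3 genes: Igf1 in replicate 1 at 139.9 CPM (76.66 to 86.75 CPM in the others), Igf1r in replicate 1 at 197.1 CPM (159.9 to 161.5 CPM) and Igf2bp1 in replicate 3 at 57.23 CPM. In all, 20 sets of 4 libraries were examined, of which chance alone marks about 1 in 20. Igf1r and Igf1 were highest in the same library, and the cause was not tested.

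The genotype effect in sorted Six2 cells differed between E14.5 and E18.5, by the interaction term, for Igfbp2 (-0.43), Igfbp3 (-1.39), Igfbp4 (-0.57), Igfbp6 (-0.97), Igfbp7 (-1.28) and Igf2bp1 (0.56, the value that lost its call without 1 of 5 of the libraries). The effect of T1 at E18.5 differed between sorted Foxd1 and sorted Six2 cells for Igf1 (-1.72), Igfbp2 (2.54), Igfbp4 (0.31), Igfbp6 (0.79), Igfbp7 (1.18) and Igf2bp1 (-0.86), where run and lineage cannot be told apart.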

How the results depend on the processing

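Without a limit on fold change the number of the 10 genes called was 3 in whole Six2-ENLT1 kidneys (14.2% of all genes), 4 in Six2-ENLT3 kidneys (17.5%), 4 and 7 in sorted Six2 cells at E14.5 and E18.5 (12.9% and 20.3%), 4 in sorted Foxd1 cells (10.7%) and 3 in whole Foxd1 kidneys (33.4%). In whole Six2-ENLT1 kidneys 1 gene, Igfbp6, was called under DESeq2, with no low-count filter, with the replicate number as a block, under the exact test and without ENLWT replicate 1. Igf2r was called in sorted Six2 cells at E18.5 with scaling by library size only. With each library left out in turn the number called was 0 to 1 in whole Six2-ENLT1 and 2 to 3 in Six2-ENLT3 kidneys, 0 to 0 between them, 2 to 2 and 4 to 5 in sorted Six2 cells, 7 to 7 for development, 5 to 7 for the stage difference, 1 to 1 in both Foxd1 comparisons and 4 to 6 for the lineage difference. Values that changed sign were called under no setting. With scaling by library size only they were 0.0402 for Igf1r, 0.0096 for Igfbp2 and 0.0485 for Igfbp4 in whole Six2-ENLT1 kidneys and 0.0428 for Igf2r at E14.5. Igf2r between T3 and T1 was -0.0062 under DESeq2, -0.0062 with RLE factors and -0.0069 with no filter, and Igf2r at E14.5 was 1e-04 with no filter, 0.0062 for genes over 1 CPM and 0.0082 with the block. Igf1 in development was 0.1039 under DESeq2, 0.1045 with RLE factors, 0.0929 for genes over 1 CPM and 0.0628 with the block. Igf2bp1 in sorted Foxd1 cells was -0.0037 with no filter, Igf1 there 0.0235 with the block, and Igf1 in whole Foxd1 kidneys -0.0223 for genes over 1 CPM and -8e-04 with the block. With 1 library left out, sign changes occurred in whole Six2-ENLT1 kidneys for Igf1r (-0.1562 to 0.1281), Igfbp2 (-0.2329 to 0.1547), Igfbp4 (-0.0847 to 0.0639) and Igfbp5 (-0.4248 to 0.0305), in Six2-ENLT3 for Igfbp2 (-0.2522 to 0.1338) and Igfbp4 (-0.0535 to 0.0936), and between T3 and T1 for Igf2r (-0.0675 to 0.0533), Igfbp2 (-0.0675 to 0.0266) and Igfbp4 (-0.0159 to 0.063). They occurred at E14.5 for Igf2r (-0.1087 to 0.1587), Igfbp6 (-0.2165 to 0.1241) and Igfbp7 (-0.2475 to 0.2255), at E18.5 for Igfbp5 (-0.0556 to 0.125), in development for Igf1 (-0.2475 to 0.3324), in sorted Foxd1 cells for Igf1 (-0.2725 to 0.333), Igf2bp1 (-0.0266 to 0.0904) and Igfbp5 (-0.1451 to 0.0787), in whole Foxd1 kidneys for Igf1 (-0.0491 to 0.0368) and Igfbp6 (-0.0324 to 0.2038), and for Igfbp5 between lineages (-0.205 to 0.0202). Replicate numbers did not pair libraries: deviations from the group means of same-numbered libraries correlated at -0.0791 to 0.0997 over 31 pairs. The block changed the calls of Igfbp6 only, in whole Six2-ENLT1 kidneys (gained) and for the lineage difference (lost, adjusted p = 0.0561). The cause of these changes was not tested. In sorted Foxd1 cells, the shallowest libraries, 3 counts correspond to 0.8551 to 1.173 CPM.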
